A study of Homo sapiens with 14 samples.

Results

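The genes described here carry out mitosis, the stage at which a cell separates its copied chromosomes. They are 60 genes of kinetochores, the spindle, the spindle checkpoint and the machinery that controls them, taken by name, and every array probe annotated to them was read. Of the 60, 58 had an annotated probe and 57 could be tested, out of 11679 genes tested in all. Their 57 probes were each detected above background on all 14 arrays. No probe was named UBE2S or NCAPH in the annotation used, and the probe of FZR1 was detected on 1 array and not tested.

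Expression was measured on 14 Illumina bead arrays in Mel202, a human uveal melanoma cell line that carries mutations of GNAQ, a G protein alpha subunit, and wild-type BRAF. Cells received ICG-001 at 3 µM or its solvent DMSO. ICG-001 is a small molecule described as binding CREBBP (CBP), a coactivator that works with β-catenin. The groups were ICG-001 for 24 h (4 arrays), DMSO for 24 h (3 arrays), ICG-001 for 48 h (4 arrays) and DMSO for 48 h (3 arrays), all in 1 cell line. In each group 1 pair of arrays has the same number in its titles, with the letter b on one of them, and was averaged to 1 replicate, which left n = 3 for ICG-001 and n = 2 for DMSO at each time. The labels do not say what the letter marks. The arrays of such a pair were no more alike than arrays without the letter b of different title numbers in 1 group. The SD of their log2 differences over probes was 0.32 to 0.35, against 0.27 to 0.36. Whatever the letter b marks enters only the first of these ranges, and its part in it was not tested. In each pair the array ending in b had fewer probes detected (17619 against 18788, 17894 against 19126, 18332 against 19523 and 18000 against 19585). With every array taken as a replicate, 19 rather than 11 of the genes fell at 48 h. The labels do not say that replicates were separate cultures, so the spread behind every p-value is that between these samples and may be technical.

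Median signals per array were 113 to 139, and 17619 to 20124 of 47323 probes were detected at p below 0.05. Of the melanocyte markers MLANA, PMEL, TYR, TYRP1, MITF, SOX10, DCT and S100B, the first 6 were annotated and tested, and their summed signal was 45094 to 46497 with ICG-001 and 47976 to 52554 with DMSO at 24 h, and 48052 to 48516 and 50226 to 52526 at 48 h. SOX10 fell, at both times. Markers of other cell types had far lower sums. At 24 h the sums were 123 to 183 with ICG-001 and 570 to 572 with DMSO for the fibroblast list (2 of 6 tested, LUM fell) and 860 to 970 against 1360 to 1361 for the immune list (3 of 6, CD68 fell). They were 1010 to 1110 against 760 to 774 for the pigment epithelium list (4 of 5 tested, 3 rose), 236 to 393 against 347 to 393 for the endothelial list (1 of 5) and 52.4 to 108 against 153 to 160 for the epithelial list (1 of 5, CDH1, which fell). At 48 h the sums with ICG-001 and DMSO were 155 to 183 against 748 to 835 (fibroblast), 847 to 1046 against 1292 to 1374 (immune), 1366 to 1449 against 682 to 774 (pigment epithelium), 223 to 250 against 245 to 325 (endothelial) and 186 to 259 against 378 to 406 (epithelial), with calls for the same genes in the same directions. The part of these shifts in the results for mitosis genes was not tested.

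As background, a cell enters mitosis when CDK1 bound to B-type cyclins becomes active. Kinetochores, built on centromeres marked by the histone CENPA, then attach chromosomes to spindle microtubules, and the spindle checkpoint holds back the anaphase-promoting complex (APC/C) until all are attached. The APC/C then frees separase, which cuts the cohesin between sister chromatids, and kinesin motors with the chromosomal passenger complex complete the division. Transcripts of these genes normally peak in G2 and M phase. Their promoters are known for a CHR element (cell cycle genes homology region), through which the DREAM complex represses them in resting cells and complexes with MYBL2 and FOXM1 activate them in cycling cells, and for CCAAT boxes bound by NF-Y. In bulk RNA, fewer cells in G2 and M phase and less RNA per cell cannot be told apart.

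The promoters of 5 genes are shown. On the brightest probe of each gene these had the largest falls at 24 h (ESPL1, CENPA, CDCA3 and AURKB) or the largest rise (CENPF). Each is the 300-base window of RefSeq on GRCh38.p14, from 250 bases before the start site to 50 bases from it on, read 5′ to 3′ on the gene's strand. The windows lie at chr12:53268049-53268348 (+) for ESPL1, chr2:26785806-26786105 (+) for CENPA, chr12:6851237-6851536 (-) for CDCA3, chr17:8210176-8210475 (-) for AURKB and chr1:214602945-214603244 (+) for CENPF. Capitals mark CCAAT boxes, as CCAAT or on the other strand ATTGG, and CHR letters. The CHR was searched as TTTGAA, or TTCAAA on the other strand. Its second form searched was TTCGAA, which reads the same on both strands. No matches of these motifs overlapped. The table lists more than 1 start for AURKB, and the first is shown.
ESPL1: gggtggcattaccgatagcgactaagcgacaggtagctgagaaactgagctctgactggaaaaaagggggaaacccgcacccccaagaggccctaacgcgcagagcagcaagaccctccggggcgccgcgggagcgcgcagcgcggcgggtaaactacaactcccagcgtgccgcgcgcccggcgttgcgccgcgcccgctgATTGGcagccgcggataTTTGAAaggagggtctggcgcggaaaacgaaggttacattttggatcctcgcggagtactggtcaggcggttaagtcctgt
CENPA: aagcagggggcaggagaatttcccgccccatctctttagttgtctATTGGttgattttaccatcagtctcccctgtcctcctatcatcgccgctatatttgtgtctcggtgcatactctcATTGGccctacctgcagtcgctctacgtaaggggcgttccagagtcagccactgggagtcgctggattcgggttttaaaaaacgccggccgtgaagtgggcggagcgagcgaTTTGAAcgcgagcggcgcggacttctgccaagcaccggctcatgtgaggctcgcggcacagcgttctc
CDCA3: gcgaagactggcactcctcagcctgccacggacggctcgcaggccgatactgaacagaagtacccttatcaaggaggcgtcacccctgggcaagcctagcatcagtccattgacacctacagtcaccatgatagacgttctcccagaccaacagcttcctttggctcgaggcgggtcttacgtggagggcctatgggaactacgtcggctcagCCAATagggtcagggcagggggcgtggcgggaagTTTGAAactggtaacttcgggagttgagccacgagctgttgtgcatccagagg
AURKB: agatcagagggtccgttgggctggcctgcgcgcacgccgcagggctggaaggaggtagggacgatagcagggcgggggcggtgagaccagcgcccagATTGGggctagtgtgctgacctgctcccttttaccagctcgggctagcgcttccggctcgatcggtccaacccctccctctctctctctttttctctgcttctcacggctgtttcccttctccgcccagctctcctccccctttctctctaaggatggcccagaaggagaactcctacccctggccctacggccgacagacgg
CENPF: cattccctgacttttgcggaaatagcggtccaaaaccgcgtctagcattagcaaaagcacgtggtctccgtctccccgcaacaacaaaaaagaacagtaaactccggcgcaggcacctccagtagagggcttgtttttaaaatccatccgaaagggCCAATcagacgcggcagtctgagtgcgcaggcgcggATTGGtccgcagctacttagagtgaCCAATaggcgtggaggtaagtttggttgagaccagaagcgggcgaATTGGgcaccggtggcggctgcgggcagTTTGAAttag

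A promoter entry was found for 53 of the 60 genes, taking the start listed first where a gene had several. Of the 53, 39 (73.6%) held CHR letters, against 11.6% of the 9371 tested genes with an entry and 16.6% of all 27305 promoters in the table. CCAAT letters stood in 38 (71.7%), against 37.3% of tested genes and 35.7% of all promoters. Both motifs stood in 29 (54.7%), against 4.81% of tested genes. Among the mitosis genes that fell at 24 h, CCAAT stood in 23 of 26 promoters (88.5%) and CHR in 17 (65.4%). Of the 31 genes that fell, AURKA, FOXM1, TPX2, CENPM and UBE2C had no entry and are not counted. TTK and BUB3, not called at 24 h, had none either. Among those not called at 24 h, CCAAT stood in 13 of 24 (54.2%) and CHR in 21 (87.5%). A match of letters is a description of the window and no evidence of binding. CENPF, which rose at 48 h, held 4 CCAAT matches and 1 CHR match, more CCAAT matches than any of the other 4 promoters printed. This number did not set it apart from the rest of the set. CCNB2, which fell at both times, also held 4 CCAAT matches and 1 CHR match. HMMR, called at neither time, held 5 CCAAT matches, and CDC20, which also rose at 48 h, held 2.

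Many of these genes were lower with ICG-001 at 24 h, and none rose. Of the 57 tested, 31 fell, 0 rose and 26 were not called (adjusted p below 0.05, limma with the Benjamini-Hochberg correction over 11679 genes). Over all genes 10.5% fell and 13.7% rose. The 57 were chosen with earlier results of these data known, so this comparison is a description and no test of the set. At an unadjusted p under 0.05, 1 of the 57 was higher, CENPF. The 31 falls were 1.30-fold to 2.11-fold, and the median log2 change over all 57 was -0.44, against 0.02 for all genes tested. Values were below 0 for 50 of the 57, against 48% of all genes. Every ICG-001 replicate lay below every DMSO replicate for 38 of the 57 and above for 2, against 23.5% and 27.4% of all genes. The median was -0.42 on the arrays with titles ending in b, 1 against 1, and -0.43 on the others, 3 against 2. The number of falls was 20 without DMSO 24 h replicate 1, and the fall of 15 genes remained called in every alternative fit run. The authors' table gave 6 genes log2 changes smaller by over 1.5 times, though still called: ESPL1 (-0.50), NUF2 (-0.56), INCENP (-0.56), SPC25 (-0.48), KIF4A (-0.48) and PLK1 (-0.34).

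**Figure D1:**
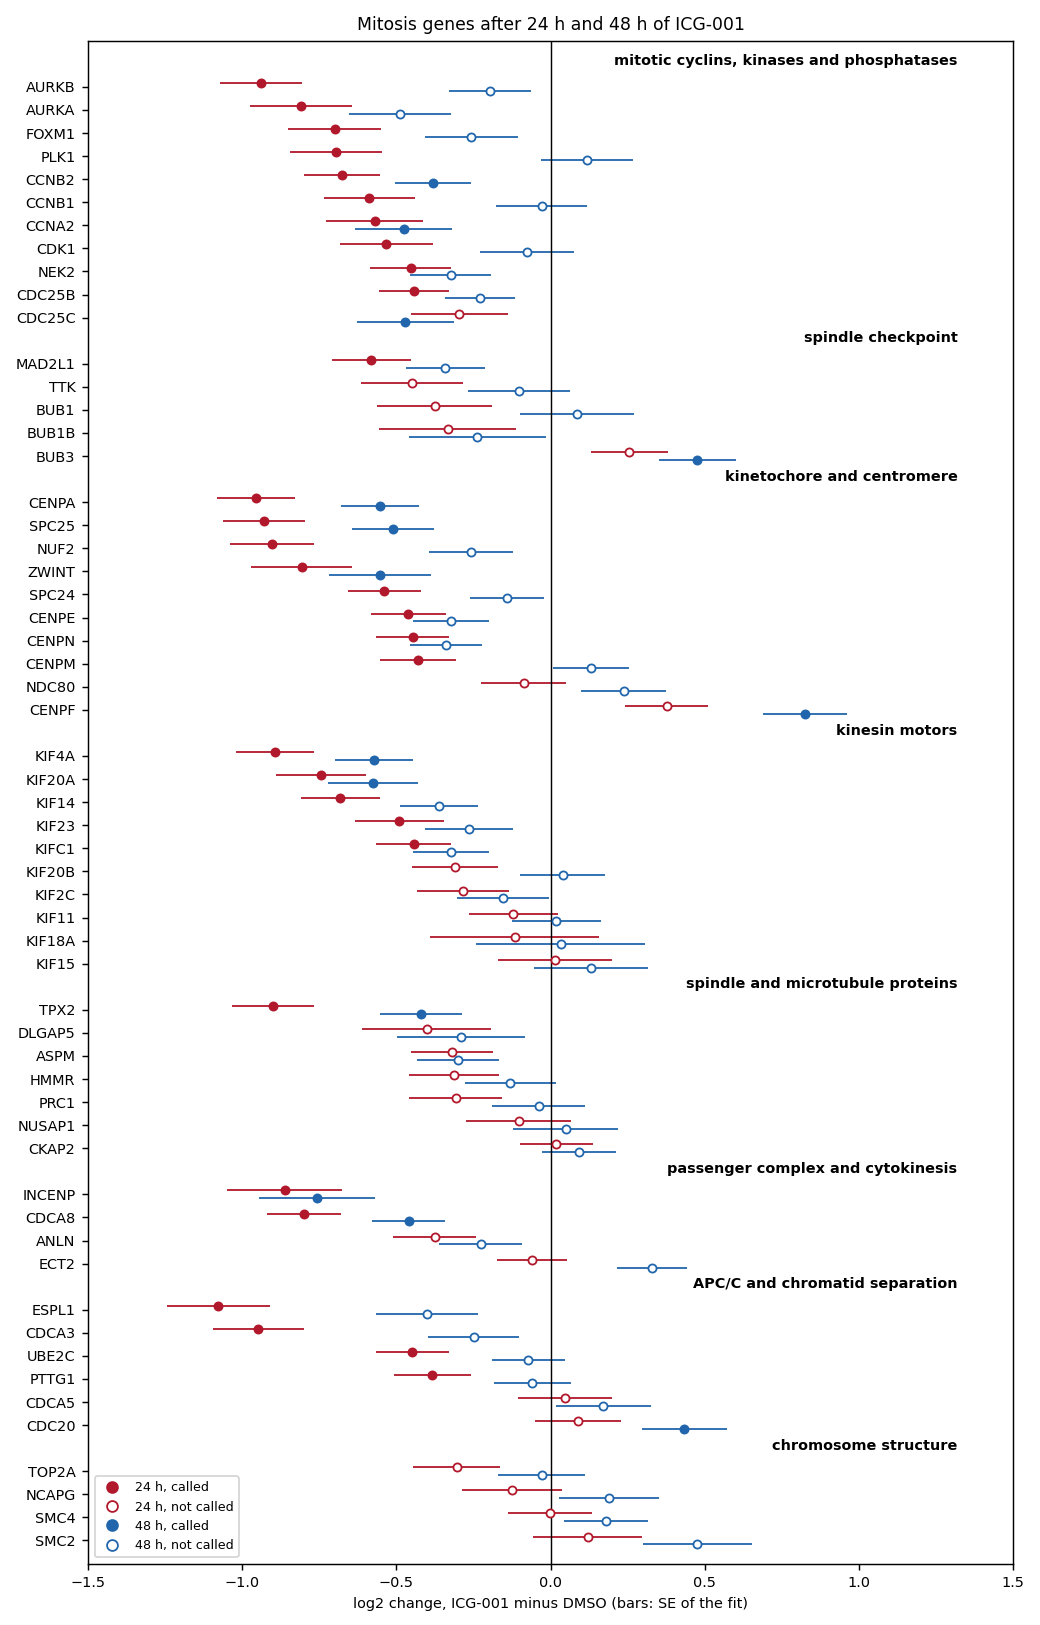
Log2 change with ICG-001 against DMSO for the 57 tested genes, grouped by role, at 24 h (red) and 48 h (blue). Bars are the SE of the fit, and filled points passed adjusted p below 0.05. Most red points lie left of 0, and for 56 of 57 genes the blue point lies to the right of the red one.

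The cyclins, kinases and phosphatases of mitosis, listed together with the transcription factor FOXM1, fell almost throughout at 24 h, in 10 of 11 tested. AURKB, the kinase of the chromosomal passenger complex, had log2 signals of 9.19, 9.49 and 9.35 with ICG-001, against 10.21 and 10.35 with DMSO. The log2 change was -0.94 ± 0.13 SE, or 1.92-fold lower (adjusted p = 0.000957). AURKA, which matures the spindle poles, stood at 9.99, 10.32 and 10.33 with ICG-001, against 11.28 and 10.77 with DMSO (log2 change -0.81 ± 0.17 SE, 1.75-fold lower, adjusted p = 0.00626). In both Aurora kinases every treated replicate lay below every control. CCNB2, a B-type cyclin, stood at 10.24, 10.44 and 10.18 with ICG-001, against 10.95 and 10.97 with DMSO (log2 change -0.68 ± 0.12 SE, adjusted p = 0.00357). FOXM1, the transcription factor that activates many genes of G2 and M phase, stood at 8.19, 8.49 and 8.15 with ICG-001, against 9.00 and 8.94 with DMSO (log2 change -0.70 ± 0.15 SE, adjusted p = 0.00795). The 2 groups did not overlap for either gene, and the falls of AURKA, AURKB, CCNB2 and FOXM1 remained called in every alternative fit run.

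PLK1, the Polo-like kinase, stood at 6.87, 7.20 and 7.00 with ICG-001, against 7.85 and 7.59 with DMSO (log2 change -0.70 ± 0.15 SE, 1.62-fold lower, adjusted p = 0.00779). CCNB1, the main mitotic cyclin, stood at 8.90, 8.89 and 9.10 with ICG-001, against 9.78 and 9.33 with DMSO (1.50-fold lower, adjusted p = 0.0154). CDK1, its kinase partner, stood at 10.35, 10.47 and 10.60 with ICG-001, against 11.05 and 10.96 with DMSO (1.45-fold lower, adjusted p = 0.0264). For these 3 genes DMSO replicate 1 was the highest value. The other falls were CCNA2, a cyclin of S and G2 phase, at 1.49-fold, NEK2, a kinase of centrosome separation, at 1.37-fold, and CDC25B, a phosphatase that activates CDK1, at 1.36-fold. Without DMSO 24 h replicate 1 the calls of PLK1 (adjusted p = 0.0517), CCNB1 (log2 change -0.36, 0.112), CDK1 (0.104), CCNA2 (log2 change -0.33, 0.173) and NEK2 (0.154) ended. The call of CDK1 also ended without DMSO 24 h replicate 2 (0.078) and ICG-001 24 h replicates 1 (0.0811) and 2 (0.0595), and that of CCNA2 without ICG-001 24 h replicates 1 (0.0764) and 2 (0.056). The call of NEK2 ended without ICG-001 24 h replicate 1 (0.0908) and without the arrays ending in b (0.0708), and that of CDC25B without DMSO 24 h replicate 2 (0.0808). CDC25C, a related phosphatase, was not called at 24 h (log2 change -0.30 ± 0.16 SE, adjusted p = 0.197), but it was with its probes averaged (log2 change -0.62, adjusted p = 0.0119).

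**Figure D2:**
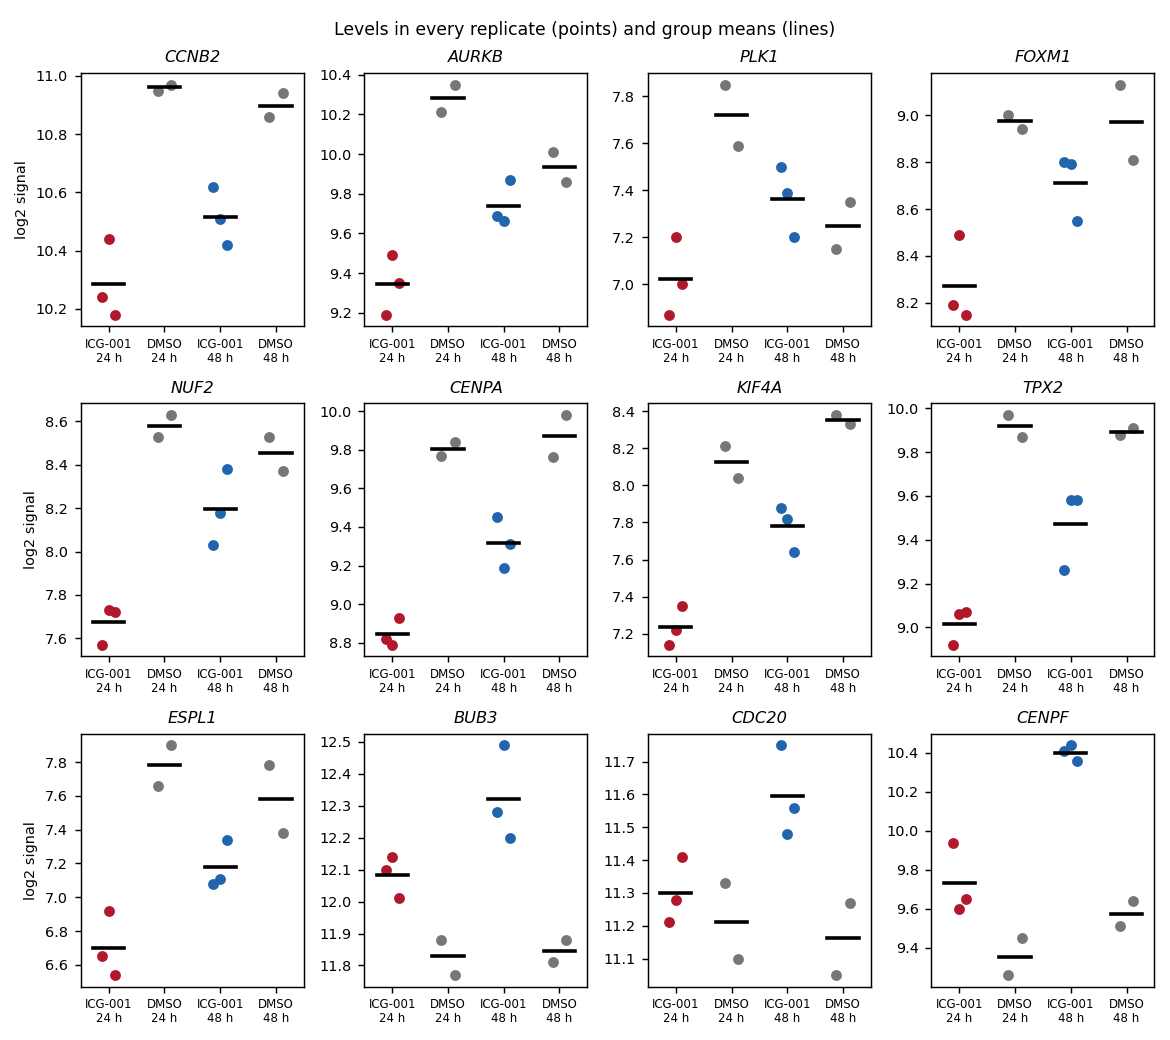
Log2 signal of 12 mitosis genes in every replicate (points) with the group mean (line), for ICG-001 and DMSO at 24 h and 48 h. Vertical axes differ between panels and do not start at 0. In CCNB2, AURKB, NUF2, CENPA, KIF4A, TPX2 and ESPL1 the 3 ICG-001 replicates at 24 h lie below both DMSO replicates, and in CENPF the ICG-001 replicates at 48 h lie above all others.

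Kinetochore and centromere genes also fell at 24 h, in 8 of 10 tested. CENPA, the centromeric histone, had log2 signals of 8.82, 8.79 and 8.93 with ICG-001, against 9.77 and 9.84 with DMSO. The log2 change was -0.96 ± 0.13 SE, or 1.94-fold lower (adjusted p = 0.000717), the smallest adjusted p among the 57 genes. SPC25 of the NDC80 complex, which grips the microtubule, stood at 6.95, 7.03 and 7.17 with ICG-001, against 7.90 and 8.06 with DMSO (1.91-fold lower, adjusted p = 0.000991). NUF2 of the same complex stood at 7.57, 7.73 and 7.72 with ICG-001, against 8.53 and 8.63 with DMSO (1.87-fold lower, adjusted p = 0.00126). The groups were far apart in each of these 3 genes relative to their spread. ZWINT, which links the outer kinetochore to the checkpoint, stood at 8.19, 8.80 and 8.49 with ICG-001, against 9.29 and 9.31 with DMSO (1.75-fold lower, adjusted p = 0.00613). SPC24, the partner of SPC25, stood at 8.78, 8.81 and 8.90 with ICG-001, against 9.33 and 9.41 with DMSO (1.45-fold lower, adjusted p = 0.00881). NDC80 itself overlapped between the groups and was not called, with 8.17, 8.25 and 8.15 in ICG-001 replicates, against 8.14 and 8.41 in DMSO replicates (log2 change -0.09 ± 0.14 SE, adjusted p = 0.685).

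CENPE, a kinetochore-bound kinesin (1.38-fold), CENPN (1.36-fold) and CENPM (1.35-fold), both of the inner kinetochore, were the other falls. Their calls, and that of SPC24, did not hold in every fit that left out 1 replicate. Without DMSO 24 h replicate 1 the adjusted p was 0.0835 for CENPE, 0.0843 for CENPM and 0.0791 for CENPN. Without DMSO 24 h replicate 2 it was 0.0532 for CENPE, 0.0879 for CENPM, 0.0513 for CENPN and 0.0545 for SPC24. Without ICG-001 24 h replicate 1 it was 0.0674 for CENPE, 0.0586 for CENPM and 0.0652 for CENPN, and without ICG-001 24 h replicate 3 it was 0.0762 for CENPM. CENPF, a large kinetochore protein of G2 and M phase, went the other way at 24 h without being called. Its log2 signals were 9.94, 9.60 and 9.65 with ICG-001, against 9.26 and 9.45 with DMSO (log2 change 0.38 ± 0.13 SE, adjusted p = 0.0639). It was called higher at 24 h in 6 of 12 alternative fits that kept all replicates.

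On the brightest probe of each gene, the chromatid separation genes held the largest fall of the set at 24 h. In the authors' table the fall of ESPL1 (-0.50) was smaller than that of NUF2 (-0.56). ESPL1, separase, had log2 signals of 6.65, 6.92 and 6.54 with ICG-001, against 7.66 and 7.90 with DMSO. The log2 change was -1.08 ± 0.17 SE, or 2.11-fold lower (adjusted p = 0.00146). CDCA3, which promotes entry into mitosis through degradation of WEE1, stood at 7.93, 8.17 and 8.34 with ICG-001, against 9.05 and 9.13 with DMSO (1.93-fold lower, adjusted p = 0.00155). UBE2C, the ubiquitin-conjugating enzyme of the APC/C, was 1.36-fold lower (adjusted p = 0.0186). PTTG1, securin, the inhibitor of separase, was 1.30-fold lower (adjusted p = 0.0455). The call of UBE2C ended without DMSO 24 h replicate 2 (adjusted p = 0.121) and ICG-001 24 h replicates 1 (0.0532) and 3 (0.0571), and that of PTTG1 ended without any 1 of the 10 replicates (0.0531 to 0.174), without the arrays ending in b (0.0923) and with the correction over all probes (0.0705). CDC20, the activator of the APC/C in mitosis, and CDCA5, sororin, overlapped between the groups (log2 changes 0.09 ± 0.14 SE and 0.05 ± 0.15 SE).

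Kinesin motors were split at 24 h, with 5 of 10 called lower, against 10.5% of all genes. KIF4A, a chromosome-bound kinesin of the central spindle, stood at 7.14, 7.22 and 7.35 with ICG-001, against 8.21 and 8.04 with DMSO (log2 change -0.89 ± 0.13 SE, 1.86-fold lower, adjusted p = 0.00096). KIF20A, needed for cytokinesis, stood at 8.88, 8.99 and 8.94 with ICG-001, against 9.93 and 9.43 with DMSO (1.68-fold lower, adjusted p = 0.00511). Its log2 change was -0.49 without DMSO 24 h replicate 1, still called (adjusted p = 0.0314). KIF14, which acts at the midbody, stood at 8.17, 8.10 and 8.21 with ICG-001, against 8.75 and 8.94 with DMSO (1.60-fold lower, adjusted p = 0.00397). KIF23 of the centralspindlin complex (1.40-fold) and KIFC1, a minus-end motor (1.36-fold), were also lower. The call of KIF23 ended without DMSO 24 h replicate 1 (log2 change -0.30, adjusted p = 0.198) and ICG-001 24 h replicates 1 (0.0612) and 3 (0.0889), and without the arrays ending in b (0.0613). That of KIFC1 ended without DMSO 24 h replicate 1 (0.136) and each ICG-001 24 h replicate (0.0515 to 0.0575). KIF11, the motor that pushes spindle poles apart, KIF15, KIF18A, KIF20B and KIF2C were not called, with log2 changes of -0.31 to 0.01.

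Of the chromosomal passenger complex, 2 members besides AURKB are among the genes listed, and both fell at 24 h. CDCA8, borealin, stood at 8.13, 8.18 and 8.11 with ICG-001, against 9.04 and 8.84 with DMSO (log2 change -0.80 ± 0.12 SE, 1.74-fold lower, adjusted p = 0.00121). INCENP, its scaffold, stood at 7.55, 7.97 and 8.16 with ICG-001, against 8.85 and 8.66 with DMSO (log2 change -0.86 ± 0.19 SE, 1.82-fold lower, adjusted p = 0.00802). The cytokinesis genes ANLN, anillin (log2 change -0.38 ± 0.13 SE, adjusted p = 0.0647), and ECT2, which activates RhoA (-0.06 ± 0.11 SE), were not called. Of the 7 spindle and microtubule proteins only TPX2, the activator of AURKA, was called. That share, 14.3%, lies near the 10.5% of all genes that fell and is no result about this list. TPX2 stood at 8.92, 9.06 and 9.07 with ICG-001, against 9.97 and 9.87 with DMSO (log2 change -0.90 ± 0.13 SE, 1.87-fold lower, adjusted p = 0.00118). PRC1, NUSAP1, ASPM, DLGAP5, HMMR and CKAP2 were not called, with log2 changes of -0.40 to 0.02.

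The spindle checkpoint and chromosome structure genes held 1 call between them at 24 h. The shares that fell were 20% and 0%, against 10.5% of all genes. With so few genes these shares are no result about either list. Of 5 checkpoint genes, MAD2L1, the inhibitor of CDC20, fell, at 10.29, 10.50 and 10.64 with ICG-001, against 11.09 and 11.02 with DMSO (log2 change -0.58 ± 0.13 SE, 1.50-fold lower, adjusted p = 0.00881). Its call ended when the probes of a gene were averaged (log2 change -0.20, adjusted p = 0.263). Its dimmer probe had the opposite sign, at 7.57, 7.26 and 7.56 with ICG-001, against 7.21 and 7.37 with DMSO (log2 change 0.18 ± 0.19 SE, adjusted p = 0.575). TTK, the kinase that starts the checkpoint signal, stood at 8.32, 8.56 and 8.34 with ICG-001, against 9.15 and 8.57 with DMSO (log2 change -0.45 ± 0.17 SE, adjusted p = 0.0692). BUB1, a kinase at unattached kinetochores, stood at 8.79, 9.01 and 8.98 with ICG-001, against 9.60 and 9.01 with DMSO (log2 change -0.38 ± 0.19 SE, adjusted p = 0.165). For both kinases DMSO replicate 2 lay next to the highest treated value and DMSO replicate 1 well above it, and both passed without DMSO 24 h replicate 2 (log2 change -0.74, adjusted p = 0.0157 for TTK, and -0.67, 0.0439 for BUB1). BUB1B overlapped between the groups (log2 change -0.33 ± 0.22 SE). Of the 4 chromosome structure genes, TOP2A, topoisomerase II (log2 change -0.30 ± 0.14 SE), and the condensin genes NCAPG, SMC2 and SMC4 (-0.12 to 0.12) were not called.

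**Figure D3:**
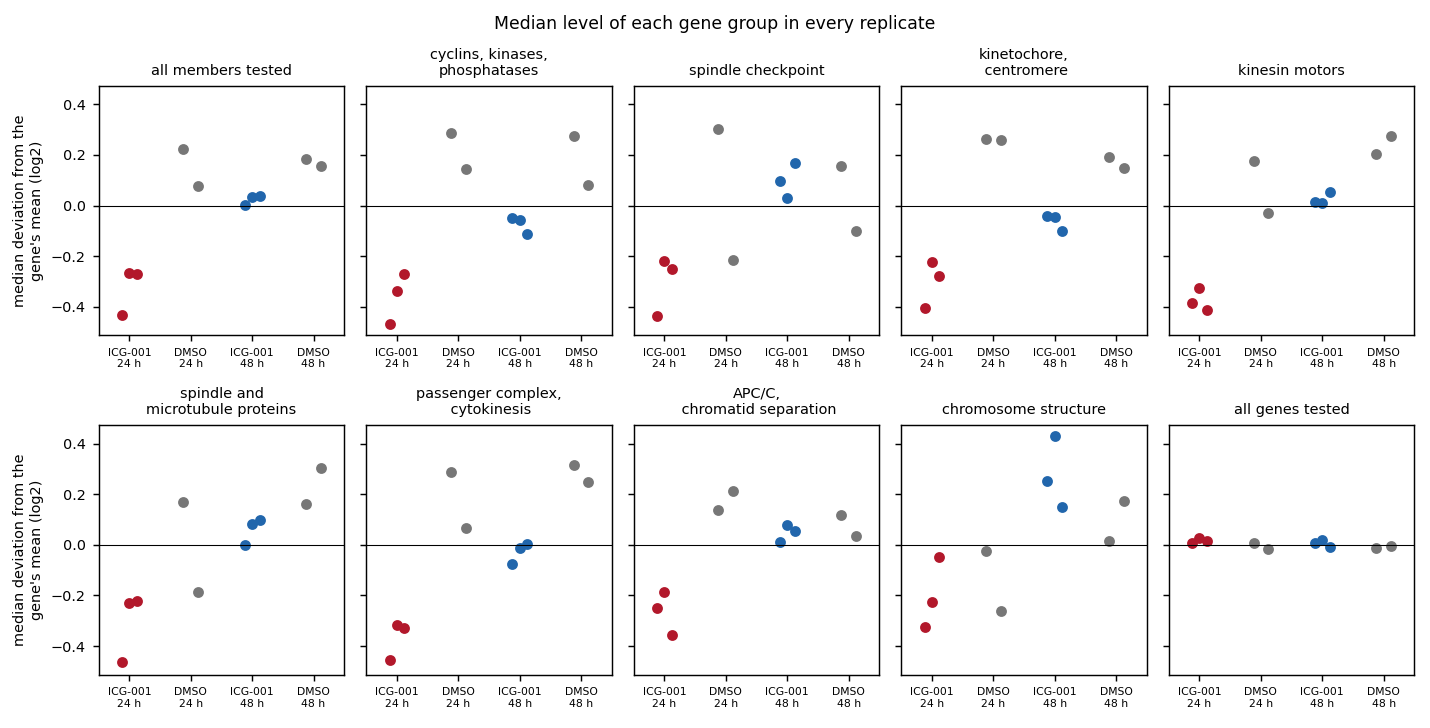
Median, over the genes of each group, of the deviation from each gene's mean (log2) in every replicate of ICG-001 and DMSO at 24 h and 48 h. For all 57 genes the ICG-001 replicates at 24 h lie at -0.43 to -0.27, below both DMSO replicates at 24 h (0.08 and 0.22), while those at 48 h lie close to 0 and all genes tested stay near 0 throughout.

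At 48 h fewer of these genes were called. Of the 57, 11 fell, 3 rose and 43 were not called, where 11.7% of all genes fell and 14% rose. The share that fell, 19.3%, was thus less far from the background than at 24 h. The median log2 change was -0.20, against 0.01 for all genes, and values were below 0 for 39 of the 57, against 48.8% of all genes. Every ICG-001 replicate lay below every DMSO replicate for 27 of the 57 and above for 6, against 26.3% and 28.1% of all genes. The median was -0.21 on the arrays with titles ending in b (1 against 1) and -0.15 on the others (3 against 2). The count of falls was 1 without DMSO 48 h replicate 2, 2 without DMSO 48 h replicate 1, 4 without ICG-001 48 h replicate 1, 7 without ICG-001 48 h replicate 2, and 19 in the authors' table.

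At both times 10 genes fell: CCNA2, CCNB2, CDCA8, CENPA, INCENP, KIF20A, KIF4A, SPC25, TPX2 and ZWINT. Of all genes 10.5% fell at 24 h and 11.7% at 48 h. The share that fell at both times was not counted, so this number has no background beside it. At 48 h CENPA stood at 9.45, 9.19 and 9.31 with ICG-001, against 9.76 and 9.98 with DMSO (log2 change -0.55 ± 0.13 SE, 1.47-fold lower, adjusted p = 0.00971). KIF4A stood at 7.88, 7.82 and 7.64 with ICG-001, against 8.38 and 8.33 with DMSO (1.49-fold lower, adjusted p = 0.00779). INCENP stood at 8.32, 7.98 and 8.02 with ICG-001, against 8.72 and 9.01 with DMSO (log2 change -0.76 ± 0.19 SE, 1.69-fold lower, adjusted p = 0.0135). INCENP was the largest fall at 48 h on the brightest probe of each gene, though its log2 change was -0.21 and not called with its probes averaged. The authors' table gave KIF4A -0.34 and SPC25 -0.27 at 48 h, both still called. The 2 probes of SPC25 had opposite signs at 48 h, and averaged they gave a log2 change of -0.03, not called. In all 10 genes every treated replicate lay below every control at both times. Over all genes 23.5% lay so at 24 h and 26.3% at 48 h, and these 10 were picked by their calls. KIF20A was 1.49-fold lower (adjusted p = 0.0156), ZWINT 1.47-fold (0.0302), SPC25 1.43-fold (0.0172), CCNA2 1.39-fold (0.0464), CDCA8 1.38-fold (0.0165), TPX2 1.34-fold (0.0385) and CCNB2 1.30-fold (0.0421). CDC25C was called lower at 48 h, at 6.72, 6.54 and 6.99 with ICG-001, against 7.37 and 7.08 with DMSO (1.39-fold lower, adjusted p = 0.0479). The test of the difference between its 48 h and 24 h changes did not pass (-0.18, 95% interval -0.67 to 0.31, unadjusted p = 0.448). The call at 48 h ended in the authors' table (log2 change -0.20, adjusted p = 0.0549), without the filter on dim probes (0.0507), with the correction over all probes (0.0695) and with the title number as a random block (0.0679).

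No fall at 48 h held in every fit that left out 1 replicate. Without DMSO 48 h replicate 1 the falls of CCNA2 (adjusted p = 0.103), CCNB2 (0.121), CDC25C (0.299), SPC25 (0.116), ZWINT (0.171), KIF20A (0.061), KIF4A (0.0599), TPX2 (0.134) and CDCA8 (0.103) ended. Without DMSO 48 h replicate 2 those of CCNA2 (0.226), CCNB2 (0.188), CDC25C (0.0601), SPC25 (0.0564), CENPA (0.0943), ZWINT (0.0747), KIF20A (0.0972), TPX2 (0.151), INCENP (0.109) and CDCA8 (0.0644) ended. Each DMSO replicate was the only one left at 48 h in such a fit, and its spread was then taken from the other groups. Without ICG-001 48 h replicate 1 the falls of CCNA2 (0.105), CCNB2 (0.0566), CDC25C (0.109), SPC25 (0.0609), ZWINT (0.0896), TPX2 (0.123) and CDCA8 (0.0577) ended. Without replicate 2 of that group those of CCNA2 (0.0803), CCNB2 (0.0853), CDC25C (0.139) and ZWINT (0.0502) ended, and without replicate 3 those of CCNA2 (0.0902), CCNB2 (0.109) and ZWINT (0.0554). Replicates of the 24 h groups, which share the estimate of spread, also ended calls at 48 h with the log2 change unmoved. These were CCNA2 without ICG-001 24 h replicates 1 (0.0501) and 2 (0.0628), CCNB2 without ICG-001 24 h replicate 1 (0.0572), TPX2 without ICG-001 24 h replicate 2 (0.0532) and CDC25C without any 1 of the 24 h replicates (0.0536 to 0.0641). The correction over all probes ended the calls of CCNA2 (0.0674), CCNB2 (0.0659) and TPX2 (0.0595), the scaling to the 75th percentile that of CCNB2 (0.0524), and leaving out the arrays ending in b those of ZWINT (0.0579) and TPX2 (0.0884).

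At 48 h 3 genes rose. CENPF, which helps to couple kinetochores to microtubules, had log2 signals of 10.41, 10.44 and 10.36 with ICG-001, against 9.51 and 9.64 with DMSO. The log2 change was 0.83 ± 0.13 SE, or 1.77-fold higher (adjusted p = 0.00165), with the groups far apart, and it was the only call at 48 h that held in every alternative fit run. BUB3, a checkpoint protein that recruits BUB1 and BUB1B to kinetochores, stood at 12.28, 12.49 and 12.20 with ICG-001, against 11.81 and 11.88 with DMSO (1.39-fold higher, adjusted p = 0.0182). CDC20 stood at 11.75, 11.48 and 11.56 with ICG-001, against 11.05 and 11.27 with DMSO (1.35-fold higher, adjusted p = 0.0399). Neither overlapped between the groups. The rise of BUB3 ended without DMSO 48 h replicates 1 (adjusted p = 0.113) and 2 (0.065) and ICG-001 48 h replicate 2 (0.0569). That of CDC20 ended without DMSO 48 h replicates 1 (0.247) and 2 (0.0645), ICG-001 48 h replicates 1 (0.124) and 3 (0.0673) and ICG-001 24 h replicates 1 (0.0505) and 2 (0.0558), and with the correction over all probes (0.0608). ECT2 (log2 change 0.33 ± 0.11 SE, adjusted p = 0.0522) and SMC2 (0.48 ± 0.18 SE, adjusted p = 0.0692) had every treated replicate above the controls without passing, as did CDCA5 (0.17 ± 0.15 SE). Of all genes 28.1% lay so at 48 h. The probes of SMC2 did not share 1 sign at 48 h, and its log2 change was -0.14 to 0.65 over the alternative fits.

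The remaining 21 of the 31 genes lower at 24 h were not called at 48 h. AURKB stood at 9.69, 9.66 and 9.87 with ICG-001 at 48 h, against 10.01 and 9.86 with DMSO, a log2 change of -0.20 (95% interval -0.49 to 0.10). PLK1 stood at 7.50, 7.39 and 7.20 with ICG-001, against 7.15 and 7.35 with DMSO, a log2 change of 0.12 (95% interval -0.21 to 0.45). CCNB1 stood at 9.39, 9.50 and 9.51 with ICG-001, against 9.55 and 9.44 with DMSO, a log2 change of -0.03 (95% interval -0.35 to 0.29). The treated and control replicates of these 3 genes overlapped at 48 h. CDK1, NUF2, SPC24, CENPM and PTTG1 overlapped as well. The other 13 were AURKA, NEK2, CDC25B, FOXM1, MAD2L1, CENPE, CENPN, KIF14, KIF23, KIFC1, UBE2C, ESPL1 and CDCA3. In these every treated replicate at 48 h lay below the controls, with log2 changes of -0.49 to -0.07. Over all genes 26.3% lay so at 48 h. The change nearest 0 was that of UBE2C (adjusted p = 0.694), whose dimmer probe was called higher at 48 h. AURKA came closest to passing (log2 change -0.49 ± 0.17 SE, adjusted p = 0.0507), and it was called lower at 48 h in 10 of 12 alternative fits that kept all replicates, among them the authors' table (adjusted p = 0.026).

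Whether the effect of ICG-001 differed between the times was tested as the 48 h change minus the 24 h change. Of 11679 genes, 0 passed limma's test with the Benjamini-Hochberg correction (0% called in either direction), and none of the 57 was close (smallest adjusted p 0.87). At an unadjusted p under 0.05 were 14 of the 57, all with the 48 h change higher, against 5.65% of all genes. The difference was above 0 for 56 of 57, CDC25C being the exception, against 49.1% of all genes. On the brightest probe of each gene it was largest in PLK1 (0.81, 95% interval 0.35 to 1.28, unadjusted p = 0.00267), AURKB (0.74, 0.33 to 1.15), CDCA3 (0.70, 0.24 to 1.16), ESPL1 (0.68, 0.16 to 1.19) and NUF2 (0.65, 0.23 to 1.06). A smaller effect at 48 h than at 24 h is therefore not shown for any gene at the threshold used.

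The treated and the control cells were also compared with themselves over time. Between ICG-001 at 48 h and ICG-001 at 24 h all 57 genes had a higher mean at 48 h, by 0.04 to 0.67 on the log2 scale with a median of 0.37, against 48.4% of all genes above 0. In 47 of the 57 every 48 h replicate lay above every 24 h replicate, against 8.86% of all genes. None of the 57 passed (smallest adjusted p = 0.0645, with 0.0856% of all genes called higher), and 41 had an unadjusted p under 0.05, against 11.5% of all genes. The count that passed reached 13 when every array was fitted with the letter b as a term. CENPF (0.67), TOP2A (0.60) and SMC2 (0.57) had the largest differences. Between DMSO at 48 h and DMSO at 24 h 36 of the 57 were above 0, with a median of 0.07 that was below 0 without DMSO 24 h replicate 2 (-0.025), against 49.8% of all genes above 0, and 0 passed in limma's test (3 at an unadjusted p under 0.05), where 0.0257% of all genes fell and 0.00856% rose. The DMSO differences over time ranged from -0.47 to 0.32 over the 57 genes. PLK1 and AURKB, which led the difference of the effects, had lower DMSO replicates at 48 h than at 24 h. These were 7.15 and 7.35 against 7.85 and 7.59 for PLK1, and 10.01 and 9.86 against 10.21 and 10.35 for AURKB. The difference of the effects is made of these same arrays and is no separate evidence.

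Averaged over both times, 32 of the 57 fell and 2 rose, BUB3 and CENPF, where 19.1% of all genes fell and 22.6% rose. On the brightest probe of each gene the largest mean falls were INCENP (log2 change -0.81 ± 0.13 SE, adjusted p = 0.000676), CENPA (-0.75 ± 0.09 SE, adjusted p = 0.000101), ESPL1 (-0.74 ± 0.12 SE) and KIF4A (-0.73 ± 0.09 SE). With its probes averaged INCENP was not called in the mean (log2 change -0.37, adjusted p = 0.069). The authors' table gave mean changes of -0.53 for INCENP, -0.35 for ESPL1 and -0.41 for KIF4A, all still called. ASPM, which holds microtubules at the spindle poles (-0.31 ± 0.09 SE, adjusted p = 0.0217), and ANLN (-0.30 ± 0.10 SE, adjusted p = 0.026) fell in the mean without being called at either time. The call of ASPM ended without DMSO 24 h replicate 2 or DMSO 48 h replicate 2 (adjusted p = 0.0824 and 0.0929). That of ANLN ended without DMSO 24 h replicate 1 (0.0884), DMSO 48 h replicate 1 (0.0862), ICG-001 24 h replicates 1 (0.0561) and 3 (0.0526) and ICG-001 48 h replicate 1 (0.0591). Of the 34 calls of the mean, 23 held in every alternative fit run.

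**Figure D4:**
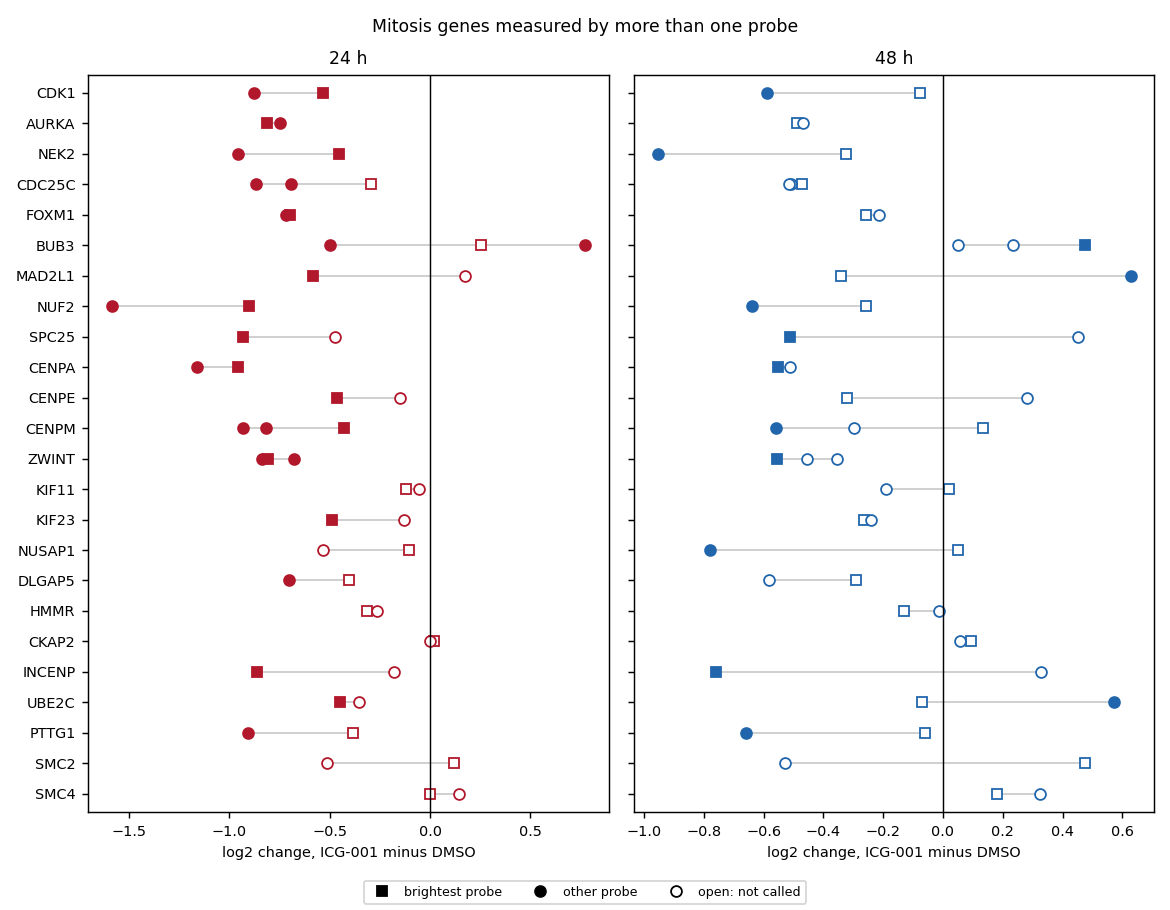
Log2 change with ICG-001 against DMSO at 24 h (left) and 48 h (right) for each probe detected in every group of the 24 genes with over 1 probe, from the fit over all probes. Squares are the brightest probe of a gene, circles its other probes, and filled marks passed adjusted p below 0.05. Marks lie on both sides of 0 for BUB3, MAD2L1, CKAP2, SMC2 and SMC4 at 24 h, and for MAD2L1, SPC25, CENPE, CENPM, KIF11, NUSAP1, INCENP, UBE2C and SMC2 at 48 h.

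All 88 probes annotated to these genes were then read, of which 87 could be fitted, with the correction over 22158 probes. At 24 h 45 fell and 1 rose, where 8.32% of all probes fell and 8.8% rose. At 48 h 13 fell and 4 rose, where 9.25% and 9.44% did. Among the 24 genes with over 1 probe, all probes of a gene had 1 sign in 19 at 24 h and in 15 at 48 h. A probe of BUB3 and one of SMC2 were detected on no array of some group and are given no fold.

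For several genes the dimmer probe showed a larger fall than the brightest. NUF2 had, on its dimmer probe, 5.87, 5.35 and 5.47 with ICG-001, against 7.16 and 7.14 with DMSO at 24 h (log2 change -1.59 ± 0.16 SE, 3.00-fold lower, adjusted p = 0.000368), and was also lower at 48 h there (log2 change -0.64, adjusted p = 0.0209). PTTG1 had 11.24, 11.16 and 11.26 with ICG-001, against 12.08 and 12.18 with DMSO at 24 h on its dimmer probe (1.88-fold lower, adjusted p = 0.00157), and at 48 h 11.21, 11.23 and 11.38 against 12.04 and 11.83 (1.58-fold lower, adjusted p = 0.00601). The brightest PTTG1 probe did not pass in the same fit at either time. NEK2 was 1.94-fold lower at both times on its dimmer probe (adjusted p = 0.00185 at 24 h and 0.00156 at 48 h). CDK1 was 1.84-fold lower at 24 h and 1.51-fold lower at 48 h on its dimmer probe (adjusted p = 0.00675 and 0.0344). Both dimmer probes of CENPM were lower at 24 h, by 1.76-fold and 1.91-fold, and both of CDC25C were lower at 24 h, by 1.62-fold and 1.83-fold (adjusted p = 0.0252 and 0.0181), although its brightest probe was not called.

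In other genes the probes disagreed in direction. BUB3 had a probe at 8.91, 9.21 and 9.17 with ICG-001, against 8.27 and 8.39 with DMSO at 24 h (log2 change 0.77 ± 0.19 SE, adjusted p = 0.0197). Another BUB3 probe stood at 9.03, 8.89 and 8.87 with ICG-001, against 9.34 and 9.51 with DMSO (log2 change -0.50 ± 0.14 SE, adjusted p = 0.035). The annotation ties these probes to different transcripts of BUB3, and no single direction can be given for the gene at 24 h. MAD2L1, which fell at 24 h on its brightest probe, had a dimmer probe at 7.70, 7.47 and 7.96 with ICG-001, against 7.30 and 6.86 with DMSO at 48 h (log2 change 0.63 ± 0.19 SE, adjusted p = 0.0387). UBE2C had a dimmer probe at 6.39, 6.61 and 6.76 with ICG-001, against 6.01 and 6.02 with DMSO at 48 h (log2 change 0.57 ± 0.18 SE, adjusted p = 0.0436). NUSAP1, not called on its brightest probe, had a dimmer probe at 9.02, 9.10 and 9.28 with ICG-001, against 9.94 and 9.89 with DMSO at 48 h (log2 change -0.78 ± 0.19 SE, adjusted p = 0.0163). With the probes of a gene averaged, the calls of MAD2L1, CENPE (adjusted p = 0.1), KIF23 (0.157) and INCENP (0.0956) at 24 h ended, and those of SPC25 (0.907), INCENP (0.488) and BUB3 (0.0803) at 48 h.

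**Figure D5:**
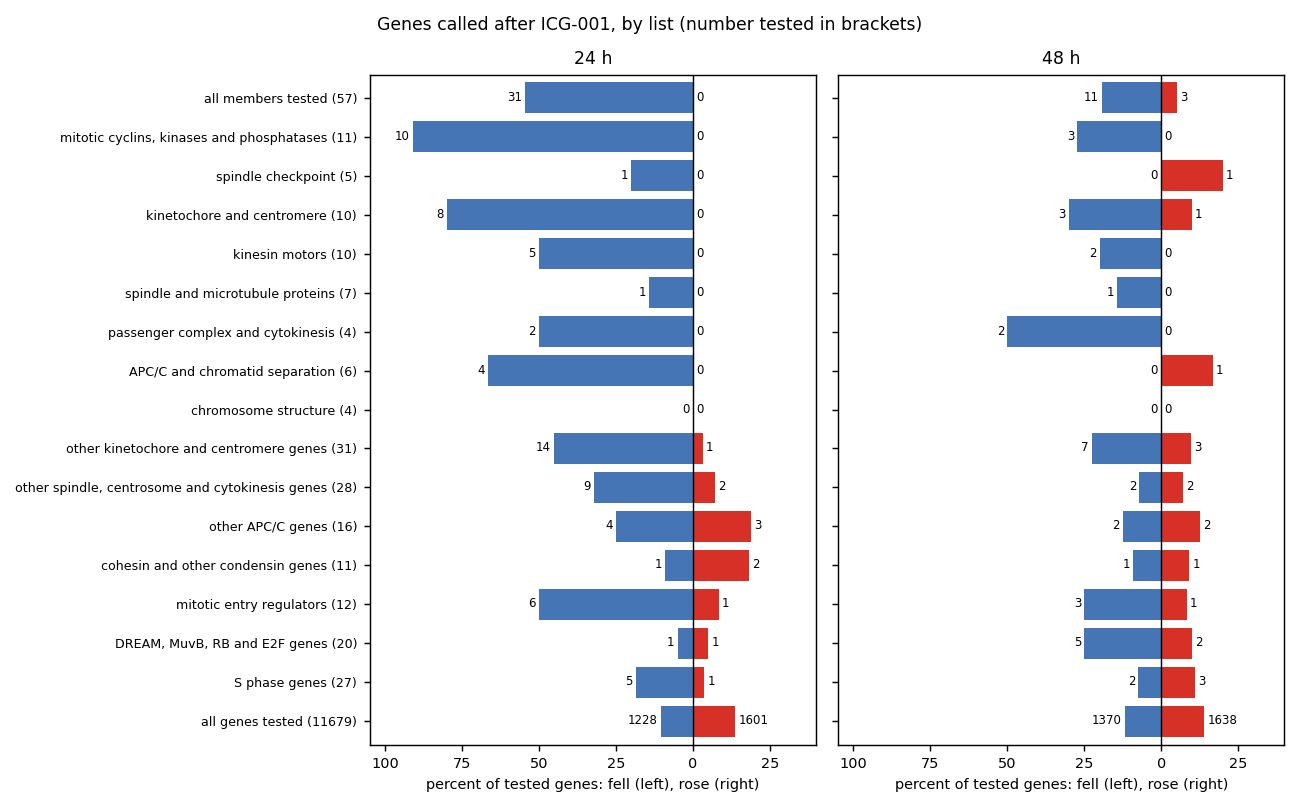
Percent of tested genes that fell (blue, left) and rose (red, right) with ICG-001 against DMSO at 24 h and 48 h, for the mitosis genes, their 8 roles, 7 further lists and all genes tested. Numbers beside the bars are gene counts. At 24 h the blue bars of cyclins, kinases and phosphatases with FOXM1 (10 of 11) and kinetochore genes (8 of 10) are the longest, against 10.5% of all genes.

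Further genes of mitosis outside the 60 were read from lists of the same complexes. These lists were also chosen with earlier results of these data known, so their shares are descriptions. Of 118 tested genes in 6 such lists, 35 fell (29.7%) and 10 rose (8.47%) at 24 h, where 10.5% and 13.7% of all genes did. At 48 h 20 fell (16.9%) and 11 rose (9.32%), near the 11.7% and 14% of all genes. Among 31 other kinetochore and centromere genes 14 fell and 1 rose at 24 h. The falls with the smallest p were CENPT (2.00-fold lower, adjusted p = 0.000786), CENPW (1.63-fold), CENPO (1.58-fold), all of the inner kinetochore, and SGO1, which protects centromeric cohesin (1.53-fold). At 48 h 7 fell and 3 rose in that list, led by SKA2, a microtubule-coupling protein (1.73-fold lower, adjusted p = 0.00295). In the authors' table the changes at 24 h of CENPT (-0.64), CENPO (-0.27), SGO1 (-0.35), PSRC1 (-0.57), ANAPC15 (-0.62), NCAPG2 (-0.38), PDS5B (0.35), BORA (-0.57) and LIG1 (-0.61) were smaller by over 1.5 times, and each was still called. Among 28 other spindle, centrosome and cytokinesis genes 9 fell and 2 rose at 24 h. PSRC1 (2.23-fold lower, adjusted p = 0.00251), KNSTRN, a kinetochore and spindle adaptor (1.97-fold), and SAPCD2 (1.81-fold) fell. HAUS6, of the augmin complex, rose (adjusted p = 0.000966), and its probe was detected on 4 of 4 ICG-001 arrays and 0 of 3 DMSO arrays at 24 h, so no fold is given. At 48 h 2 of the 28 fell and 2 rose (7.14% each), below the 11.7% and 14% of all genes and no result about this list.

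Of 12 regulators of mitotic entry, 6 fell (50%) and 1 rose (8.33%) at 24 h, against 10.5% and 13.7% of all genes. At 48 h 3 fell (25%) and 1 rose (8.33%), against 11.7% and 14% of all genes. ENSA, which inhibits the phosphatase PP2A in mitosis, stood at 9.46, 9.69 and 9.70 with ICG-001, against 10.46 and 10.62 with DMSO at 24 h (1.90-fold lower, adjusted p = 0.00132). It stood at 9.57, 9.36 and 9.72 with ICG-001, against 10.54 and 10.58 with DMSO at 48 h (2.02-fold lower, adjusted p = 0.000704). BORA, a cofactor through which AURKA activates PLK1, was 1.94-fold lower at 24 h (adjusted p = 0.00135). Neither gene overlapped between the groups at 24 h, and with the probes of a gene averaged the log2 change of ENSA at 24 h was -0.60. Among 16 other APC/C genes 4 fell (25%) and 3 rose (18.8%) at 24 h, against 10.5% and 13.7% of all genes, and ANAPC15 was 2.01-fold lower (adjusted p = 0.00134). Among 11 cohesin and other condensin genes 1 fell (9.09%), NCAPG2 (1.49-fold, adjusted p = 0.00398), and 2 rose (18.2%), PDS5B (1.55-fold higher, adjusted p = 0.00236) and NIPBL. The rises of the APC/C list and both counts of the cohesin list lie near the shares of all genes and are no result about these lists. The call of NIPBL ended without either DMSO 24 h replicate (adjusted p = 0.119 and 0.0788) and ICG-001 24 h replicates 1 (0.0715) and 3 (0.0737).

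The genes of the DREAM, MuvB, RB and E2F complexes, which control transcription of the set, were also read, in a list that included the NF-Y subunits NFYA, NFYB and NFYC. Of 20 tested, 1 rose, RBL2, and 1 fell, LIN52, at 24 h (5% each, against 13.7% and 10.5% of all genes). At 48 h 2 rose (10%) and 5 fell (25%), against 14% and 11.7% of all genes. NFYA was among these falls (log2 change -0.64, adjusted p = 0.0104). So was RBBP4 (-0.64, 0.00878), which was not called with its probes averaged (-0.18, 0.465). The fall of LIN54 (-0.60) was not called without ICG-001 48 h replicate 2 (0.0559). Without DMSO 48 h replicate 1 none of the calls of NFYA (log2 change -0.55), RBBP4 (-0.59) and LIN54 (-0.63) held. Nor did that of LIN54 without DMSO 48 h replicate 2 (-0.57). The authors' table gave NFYA -0.35 and LIN54 -0.34, both still called. The calls at 24 h ended when single replicates were left out, that of RBL2 without DMSO replicate 2 (adjusted p = 0.151) and ICG-001 replicates 1 (0.0565) and 3 (0.0768), and that of LIN52 without any 24 h replicate except ICG-001 replicate 3 (0.054 to 0.117) and without the arrays ending in b (0.0515). Of 27 S phase genes 5 fell (18.5%) and 1 rose (3.70%) at 24 h, against 10.5% and 13.7% of all genes. At 48 h 2 fell (7.41%) and 3 rose (11.1%), no more than the 11.7% and 14% of all genes. LIG1, DNA ligase I, was 1.97-fold lower at 24 h (adjusted p = 0.00316) and TYMS, thymidylate synthase, 1.58-fold lower (adjusted p = 0.00357). CDT1, the replication licensing factor, was 1.79-fold higher at 48 h (adjusted p = 0.00441). The median log2 change of the S phase list at 24 h was 0.01, against -0.44 for the 57 mitosis genes.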

How the data were processed

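Total RNA of Mel202 cells was labelled with biotin (Illumina TotalPrep) and measured on 14 bead arrays, per the labels' protocols. The deposited probe intensity is on a linear scale with no background correction, per the file headers and its values, beside a detection p-value, which the deposited file gives in steps of 1 in 770. The authors' table of log2 values, made with lumi per the submitters' processing notes, served as an alternative. The settings behind it are unknown here. Arrays limit precision by their number.

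Intensities were background-corrected and quantile-normalized with limma 3.58.1 in R 4.3.3 (neqc, offset 16). Probes with a detection p below 0.05 on at least 3 arrays were kept (22158 of 47323), and the probe with the highest mean stood for a gene, named through the platform annotation (16545 probes with 1 symbol, 3 with several). Arrays sharing a title number were averaged. A linear model with 4 group means (residual df 6) and moderated tests in limma, two-sided with Benjamini-Hochberg adjustment over 11679 genes, gave each comparison. Log2 changes are ICG-001 minus DMSO, and changes of dim probes are understated. The code was tested on simulated data. Members and lists were chosen with earlier results of these data known. Genes outside the listed 60 are named among the 4 with the smallest p of their list and comparison. Alternatives varied the background correction, offset, scaling, filter, probe choice, array averaging and replicates. Promoters are RefSeq, GRCh38.p14.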

Additional observations from a re-analysis of the deposited data

How the results depend on the processing

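At 24 h the number of mitosis genes that fell was 20 to 30 with 1 replicate left out, 20 being without DMSO 24 h replicate 1. The number that rose was 1 in the authors' table, without background correction, with offset 50 and with the title number as a random block, and 2 with every array as a replicate or with the letter b as a term. The median log2 change at 24 h was -0.35 in the authors' table and -0.51 to -0.36 with 1 replicate left out. At 48 h the number that fell was 19 in the authors' table, 18 without background correction, 7 adjusted over all probes, 19 with every array as a replicate and 20 with the letter b as a term, and 1 to 12 with 1 replicate left out. The number that rose at 48 h was 5 in the authors' table, without background correction, with offset 50 and with every array, 6 with the letter b as a term, and 1 to 4 with 1 replicate left out. In the mean of the times 4 rose without background correction, with offset 50, with every array, with the random block and with the letter b. Between ICG-001 at 48 h and at 24 h the number that rose was 4 in the authors' table, without background correction and with every array, 3 with offset 50, 1 with probes averaged, 2 with the random block and 13 with the letter b. The median difference between DMSO at 48 h and at 24 h was -0.025 to 0.13 with 1 replicate left out, below 0 without DMSO 24 h replicate 2. The cause of these shifts was not tested. No paired analysis was possible because no title number was shared between the groups compared. With 2 DMSO replicates at each time, leaving 1 out leaves a lone sample assumed to vary like the other groups.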
